A study of Mus musculus with 29 samples.

Results

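Liver gene expression in Prox1 K556R and wild-type (WT) mice was compared as the average over fasted and refed mice. A gene thus counts only as far as K556R and WT livers differ when both feeding states are given equal weight. All 29 liver libraries entered the comparison, 15 K556R livers (7 fasted and 8 refed) and 14 WT livers (8 fasted and 6 refed). Genes of the interferon response were set aside by a list, which left 130 of the 15603 tested genes with a difference outside that list. Genes off the list can still follow the interferon response, as described below. All mice were males that were switched at 8 weeks of age to a diet of 45% fat and 20% fructose for 18 weeks, and all livers were taken between ZT 15 and ZT 17, either fasted or refed. In the K556R groups, Cre recombination at 8 weeks turned on the SUMO-deficient Prox1 in hepatocytes. The Cre driver, and what the WT mice received in its place, are not given in the sources used here. The labels call the groups Cre and Ctrl, so differences due to Cre or its delivery cannot be told apart from those due to the allele. The labels name 2 batches, with 4, 4, 4 and 3 libraries in batch 1 and 3, 4, 4 and 3 in batch 2 (K556R fasted, K556R refed, WT fasted and WT refed livers). The labels alone set the libraries apart as samples, and no source used here says that each is a separate animal, so a p-value measures spread among libraries.

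Prox1 is a homeobox transcription factor that hepatocytes use to restrain nuclear receptors and to hold their lipid and bile acid genes in check. SUMO is a ubiquitin-like modifier joined to lysines of many transcription factors, often at a lysine that follows a bulky hydrophobic residue and stands a residue ahead of a glutamate, and the modification commonly changes which partners a factor binds. K556R replaces such an acceptor lysine by an arginine, to which SUMO cannot be joined. The coding sequence around that residue is shown because it holds the codon that K556R exchanges. It was read from the GENCODE M21 transcripts of Prox1, whose reading frame has 737 codons. The codon of the exchanged residue is AAG, a lysine codon, here in capitals with 15 bases on either side.
Prox1, codon changed by K556R, wild-type sequence: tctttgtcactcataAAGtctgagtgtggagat
Counts per gene do not tell one allele from the other.

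Prox1 itself (ENSMUSG00000010175, chromosome 1, 190118035 to 190170714, GRCm38, minus strand) was expressed in every group. Fasted K556R livers had 167, 188 and 203 CPM (lowest, median and highest; CPM, a count scaled to the effective library size), against 153, 174 and 195 CPM in fasted WT livers. In the refed state, K556R livers had 120, 149 and 203 CPM, against 125, 168 and 184 CPM in refed WT livers. The ranges overlapped in both states, and the mean log2 difference (K556R minus WT throughout) was -0.02 ± 0.06 (SE, adjusted p = 0.907). Adjusted p-values here and below come from the edgeR quasi-likelihood test with Benjamini-Hochberg adjustment over all 15603 genes, and a gene is called at an adjusted p below 0.05. The antisense transcript Gm28172, which lies inside the Prox1 gene on the opposite strand, was called lower (-0.76 ± 0.19, adjusted p = 0.0378). The strand setting of the counting is not stated, so its reads and those of Prox1 cannot be told apart.

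Over both feeding states, 194 genes were called (1.24% of tested genes), 98 higher in K556R livers (0.628%) and 96 lower (0.615%). By edgeR, 2291 of the 15603 tested genes had an unadjusted p below 0.05 in this contrast. The list counts at that threshold given below are to be read against this share. The interferon list, 236 tested genes, held 64 of the higher genes (27.1% of the list) and none of the lower. Outside the list 34 genes were higher (0.221%) and 96 were lower (0.625%), and these 130 are described below. The higher genes were fewer than the lower genes and, by their medians, less expressed and changed more. The call itself links level and size of change, so this contrast is a description. Their median log2 difference was 0.73 (range 0.17 to 5.28), 11 of 34 exceeded 2-fold, and 16 had a mean level below log2 CPM 1. The lower genes were many, well expressed and changed little. Their median was -0.23 (range -3.15 to -0.14), only Mup13 of the 96 exceeded 2-fold, and 5 had a mean level below log2 CPM 1. Over all tested genes the median difference was 0.00. In these bulk livers, fewer cells of a type and less RNA per cell cannot be told apart.

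The direction was shared by the feeding states. All 34 higher genes lay above 0 in fasted and in refed livers, and 95 of the 96 lower genes lay below 0 in both, the exception being Mup13. The higher genes had a median log2 difference of 0.63 when fasted and 0.72 when refed, and the lower genes -0.22 in both. Because the mean of both states chose these genes, these medians are a description. Taken alone, the fasted livers gave 16 calls (0.103% of tested genes), 5 higher and 3 lower of them among the 130, and the refed livers gave none by edgeR (0.0%), with 1319 genes at an unadjusted p below 0.05. Of the 130 genes, 112 (29 higher and 83 lower) had an unadjusted p below 0.05 and 1 sign in each state, which 2.3% of all tested genes also met. No gene differed between the states in its genotype difference by edgeR (0.0%, with 440 at an unadjusted p below 0.05, 8 of them among the 130).

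**Figure D1:**
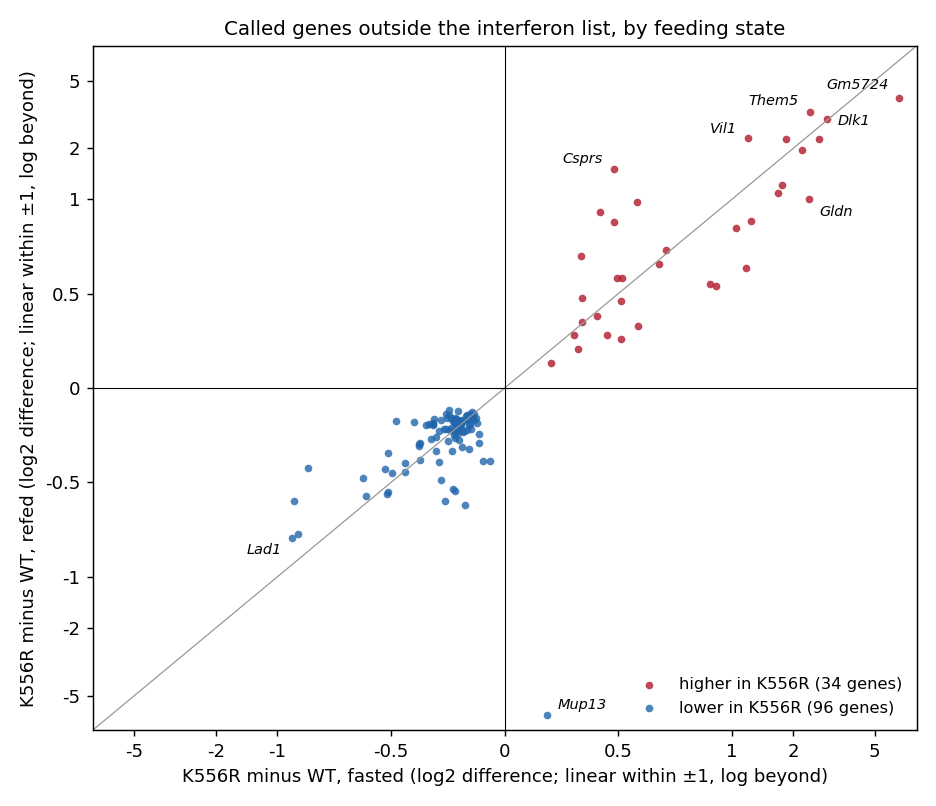
Log2 difference between K556R and WT livers when fasted (horizontal axis) and when refed (vertical axis) for the 130 called genes outside the interferon list, on axes that are linear near 0 and logarithmic beyond. Red points are the 34 higher and blue points the 96 lower genes, and Mup13 is the only one that is higher when fasted and lower when refed.

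The gene with the largest difference was Gm5724 (ENSMUSG00000084927, chromosome 6, 141708118 to 141773810, minus strand), a protein-coding model that lies among the Slco genes, which code for organic anion transporters. It was close to silent in WT livers and detected in every K556R liver. Fasted K556R livers had 1, 17 and 29 counts (lowest, median and highest), against 0 counts in each of the 8 fasted WT livers. After refeeding, K556R livers had 1, 3.5 and 19 counts, against 0, 0 and 2 counts in refed WT livers, where a single library held the 2 counts. Within each batch and state, every K556R liver stood above every WT liver in CPM, which 2 of the tested genes did (0.0128%) and which Gm5724 alone did outside the interferon list. In refed batch 1, a K556R liver and a WT liver both had 2 counts, so only the scaling to library size set them apart. Over both batches, 7 of the 8 refed K556R livers stood above the highest refed WT liver. The fitted log2 difference was 5.28 ± 0.53 (adjusted p = 2.0e-05), a value that depends on the prior count because WT livers were near 0. Summed over both states, 152 counts in K556R livers stood against 2 in WT livers, a ratio per depth of 70.7 with a 95% interval of 19.2 to 589 that covers counting error only. For fasted livers, the K556R level was at least 37.5-fold higher than a floor of 3 counts over the WT group. The levels were higher in batch 1, from 0.82 to 1.08 CPM in fasted K556R livers there and from 0.06 to 0.48 CPM in batch 2.

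Slco1c1 (ENSMUSG00000030235, chromosome 6, 141524368 to 141570177, plus strand), a transporter of thyroid hormone known from brain endothelium, lies 137941 bases from Gm5724 and was also higher. Fasted K556R livers had 2, 12 and 34 counts of Slco1c1, against 0, 2 and 7 counts in fasted WT livers. Refed K556R livers had 1, 4 and 12 counts, against 0, 0.5 and 3 counts in refed WT livers. The ranges overlapped in both states, and the log2 difference was 2.47 ± 0.46 (adjusted p = 0.00382), or 155 counts against 22 in sum (ratio per depth 6.56, 95% counting interval 4.18 to 10.8). The transporter genes around them were not called. Slco1b2, a main hepatocyte uptake transporter that lies between both genes, differed by -0.08 ± 0.10 (adjusted p = 0.747). Slco1a4 differed by -0.12 ± 0.25 (adjusted p = 0.872) and Slco1a1 by 0.65 ± 0.55 (adjusted p = 0.622). Of the 9 tested members of the Slco list, these 2 were called, against 0.628% of all genes called higher.

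The promoters of the pair are shown because they are neighbours that were higher together (RefSeq, GRCm38.p6, 250 bases before to 50 after the start, 5′ to 3′ on the gene's strand). Capitals mark the E-box CACGTG, which reads the same on both strands and was found in the Slco1c1 window and not in the Gm5724 window. RefSeq places the start of Gm5724 upstream of the gene end given above.
Gm5724, chr6:141778070-141778369, minus strand: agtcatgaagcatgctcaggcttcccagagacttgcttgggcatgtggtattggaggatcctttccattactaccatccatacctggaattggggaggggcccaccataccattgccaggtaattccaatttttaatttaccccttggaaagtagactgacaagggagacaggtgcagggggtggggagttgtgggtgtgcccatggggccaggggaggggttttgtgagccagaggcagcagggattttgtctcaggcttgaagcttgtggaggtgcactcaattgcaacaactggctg
Slco1c1, chr6:141524104-141524403, plus strand: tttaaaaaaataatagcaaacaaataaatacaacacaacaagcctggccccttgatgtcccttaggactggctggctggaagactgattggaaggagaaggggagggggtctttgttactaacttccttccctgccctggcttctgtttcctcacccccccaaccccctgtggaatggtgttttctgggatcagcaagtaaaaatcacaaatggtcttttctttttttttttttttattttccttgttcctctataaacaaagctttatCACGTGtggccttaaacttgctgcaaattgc

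Several other genes that are nearly silent in WT liver were higher in K556R livers. Gldn codes for gliomedin, a collagen-like protein known from the nodes of peripheral nerves. Fasted K556R livers had 0.788, 0.973 and 2.02 CPM of Gldn, against 0, 0.175 and 0.593 CPM in fasted WT livers, and the groups did not overlap. In the refed state, K556R livers had 0.296, 0.686 and 1.05 CPM, against 0.191, 0.320 and 0.557 CPM in refed WT livers, with overlap. The log2 difference of Gldn was 1.69 ± 0.29 (adjusted p = 0.00182), with 1.84 in batch 1 and 1.54 in batch 2. Them5, a mitochondrial acyl-CoA thioesterase, had 128 counts in K556R livers and 16 in WT livers (log2 difference 2.83 ± 0.52, adjusted p = 0.00351). Fasted livers had 0, 5 and 28 counts of Them5 in K556R and 0, 1 and 4 in WT. Refed livers had 0, 6.5 and 20 counts in K556R and 0, 0.5 and 2 in WT, so the ranges overlapped in both states. Vil1, which codes for the microvillus protein villin, differed by 1.74 ± 0.42 (adjusted p = 0.0339), with group medians of 0.336 CPM in fasted K556R and 0.158 CPM in fasted WT livers, and of 0.448 CPM in refed K556R and 0.0870 CPM in refed WT livers. The antisense transcript Gm45792 was called (2.06 ± 0.51, adjusted p = 0.0377). Its level was 9.14 CPM in 1 refed K556R liver (batch 1 replicate 4), and without that library the adjusted p was 0.0161. The call was lost in 13 of the other fits that leave out 1 library, at adjusted p-values of up to 0.0834 by edgeR.

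**Figure D2:**
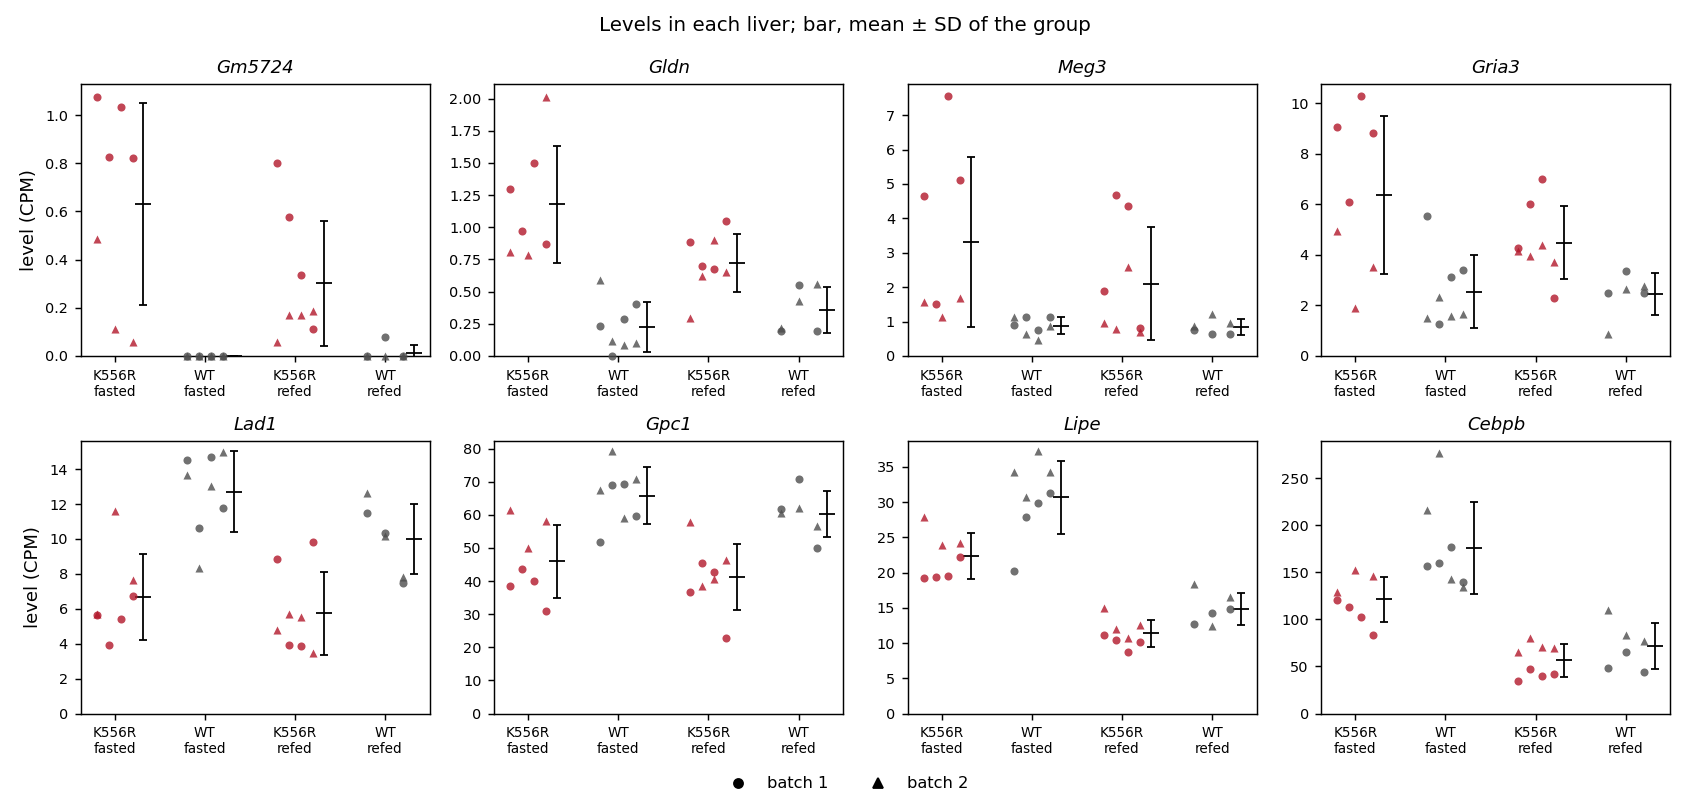
CPM of 8 genes (vertical axes) in every library, by group from left to right as K556R fasted, WT fasted, K556R refed and WT refed. Circles are batch 1, triangles batch 2, and bars give the mean ± SD of each group. Gm5724, Gldn, Meg3 and Gria3 are higher and Lad1, Gpc1, Lipe and Cebpb lower in K556R livers.

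The imprinted Dlk1 and Meg3 domain of chromosome 12 held 3 of the 34 higher genes. Dlk1, a membrane protein related to Notch ligands, is made from the paternal chromosome, and the long noncoding RNAs Meg3, Rian and Mirg from the maternal one. All are active in fetal liver and largely shut in the adult. Meg3 had 1.12, 1.68 and 7.56 CPM in fasted K556R livers, against 0.474, 0.881 and 1.14 CPM in fasted WT livers. After refeeding, K556R livers had 0.701, 1.42 and 4.68 CPM of Meg3, against 0.631, 0.816 and 1.21 CPM in refed WT livers. Above every WT liver of their state stood 6 of the 7 fasted and 4 of the 8 refed K556R livers. The 5 highest were all of batch 1, at 4.37 to 7.56 CPM of Meg3. The log2 differences were 1.49 ± 0.29 for Meg3 (adjusted p = 0.00621), 2.08 ± 0.43 for Rian (adjusted p = 0.00891) and 2.94 ± 0.62 for Dlk1 (adjusted p = 0.0123). In counts, K556R livers summed to 888 for Meg3, 428 for Rian and 376 for Dlk1, against 242, 70 and 38 in WT livers. Dlk1 overlapped within every batch and state, with 1, 11 and 112 counts in fasted K556R and 0, 2 and 10 in fasted WT livers. Refed livers had 1, 9 and 52 counts of Dlk1 in K556R and 0, 2 and 5 in WT. Mirg, with too few counts to test, had 73 counts in K556R livers and 6 in WT livers (ratio per depth 11.3, 95% counting interval 4.96 to 31.9). Rtl1, a paternally expressed gene of the domain, had 7 counts in K556R and 0 in WT livers.

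Transcripts at the far end of the domain gave other values. Dio3, the gene of a thyroid hormone deiodinase, had 23 counts in K556R livers and 47 in WT livers, too few to test. Dio3os, the neighbouring noncoding RNA, had 272 and 316 counts in K556R and WT livers and was not called. Of 118 genes in the domain that the table lists, 30 had any count and 6 were tested. By batch, the log2 difference of Meg3 was 2.20 in batch 1 and 0.61 in batch 2, that of Rian 2.99 and 0.44, and that of Dlk1 3.58 and 1.77. Meg3 lies 77665 bases from Dlk1 and 32214 from Rian, and the promoters of Dlk1 and Meg3 are shown as the start sites of a paternally and a maternally expressed gene. They held none of the 4 motifs searched on both strands, which are the interferon response element core (GAAA, any 2 bases, GAAA), the E-box CACGTG, the C/EBP site TTGCGCAA and a direct repeat of AGGTCA spaced by 1 base.
Dlk1, chr12:109452573-109452872, plus strand: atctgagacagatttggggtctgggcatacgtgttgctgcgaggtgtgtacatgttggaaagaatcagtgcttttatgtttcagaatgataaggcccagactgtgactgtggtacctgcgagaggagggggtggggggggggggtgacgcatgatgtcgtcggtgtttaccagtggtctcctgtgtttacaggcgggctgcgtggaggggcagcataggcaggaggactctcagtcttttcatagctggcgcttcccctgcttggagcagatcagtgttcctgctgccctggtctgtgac
Meg3, chr12:109540746-109541045, plus strand: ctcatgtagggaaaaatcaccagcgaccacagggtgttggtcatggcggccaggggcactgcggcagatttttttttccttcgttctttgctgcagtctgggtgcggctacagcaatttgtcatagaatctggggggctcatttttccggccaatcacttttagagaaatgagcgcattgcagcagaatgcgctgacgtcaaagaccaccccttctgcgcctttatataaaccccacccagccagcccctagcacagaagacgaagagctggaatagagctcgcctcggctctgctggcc

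Targets of p53, the transcription factor that responds to DNA damage and other stress, made up 5 of the 34 higher genes and none of the lower. Psrc1, a microtubule regulator, had 0.448, 1.35 and 3.86 CPM in fasted K556R livers, against 0.306, 0.611 and 0.845 CPM in fasted WT livers. Refed K556R livers had 0.330, 1.21 and 3.12 CPM of Psrc1, against 0.217, 0.676 and 1.11 CPM in refed WT livers. Psrc1 rose by a log2 difference of 1.39 ± 0.30 (adjusted p = 0.013), with overlap in both states. Eda2r, a receptor of the tumour necrosis factor family, had 3.14, 6.86 and 11.8 CPM in fasted K556R livers, against 1.74, 3.38 and 4.74 CPM in fasted WT livers. In the refed state, K556R livers had 0.771, 2.93 and 4.40 CPM of Eda2r, against 0.908, 1.38 and 2.77 CPM in refed WT livers. The lowest refed K556R value, batch 1 replicate 4, stood below every WT liver, and Eda2r rose by 0.95 ± 0.20 (adjusted p = 0.0141).

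The other called targets were better expressed and changed less. Ccng1, which codes for cyclin G1, had 52.2, 72.3 and 88.5 CPM in fasted K556R livers, against 43.0, 50.9 and 55.8 CPM in fasted WT livers. In refed livers it had 40.2, 55.2 and 76.5 CPM in K556R, against 41.4, 47.6 and 52.0 CPM in WT. Ccng1 rose by 0.37 ± 0.07 (adjusted p = 0.00544), with overlap in each state. Plk2, a polo-like kinase, rose by 0.49 ± 0.13 (adjusted p = 0.0499) and Mdm2, the ubiquitin ligase that degrades p53, by 0.27 ± 0.07 (adjusted p = 0.0379). Of the 35 tested genes on the p53 list, 28 lay above 0, the median was 0.19 (0.18 in batch 1 and 0.16 in batch 2) and 5 were called, against 0.628% of all genes called higher. With 1 library left out, 3 to 8 of the list were called; Plk2 was lost in 22 and Mdm2 in 14 of the 29 fits. Among those that did not pass, Gtse1 had 0.74 ± 0.19 (adjusted p = 0.0516), Ddit4l 0.95 ± 0.26 (adjusted p = 0.0582) and Zmat3 0.34 ± 0.10 (adjusted p = 0.092). Cdkn1a, the cell cycle inhibitor p21, had 0.36 ± 0.23 (adjusted p = 0.48).

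The remaining higher genes were of mixed roles. Gria3, a subunit of AMPA glutamate receptors, had 1.91, 6.08 and 10.3 CPM in fasted K556R livers, against 1.27, 1.98 and 5.54 CPM in fasted WT livers. After refeeding, K556R livers had 2.31, 4.22 and 7.01 CPM of Gria3, against 0.867, 2.58 and 3.37 CPM in refed WT livers. Gria3 rose by 1.06 ± 0.20 (adjusted p = 0.00361), with the upper K556R livers above all WT livers. Slc17a8, a vesicular glutamate transporter, had medians of 47.0 CPM in fasted K556R and 32.95 CPM in fasted WT livers, and of 49.0 CPM in refed K556R and 34.2 CPM in refed WT livers (0.55 ± 0.14, adjusted p = 0.048). Kbtbd8, an adaptor of cullin ubiquitin ligases, had 2.32, 2.46 and 3.43 CPM in fasted K556R livers, against 1.49, 1.69 and 2.48 CPM in fasted WT livers. It rose by 0.54 ± 0.11 (adjusted p = 0.00576) with 0.49 in batch 1 and 0.60 in batch 2. Kif11, a kinesin of the mitotic spindle, rose by 0.68 ± 0.14 (adjusted p = 0.00911) and Hap1, a partner of huntingtin, by 0.52 ± 0.12 (adjusted p = 0.0205).

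Mbl2, a mannose-binding lectin that hepatocytes secrete and that starts the lectin pathway of complement, was the most abundant of the higher genes. It had 258, 391 and 425 CPM in fasted K556R livers, against 214, 239 and 283 CPM in fasted WT livers. Refed K556R livers had 264, 304 and 407 CPM of Mbl2, against 240.1, 263 and 292 CPM in refed WT livers. Mbl2 rose by 0.39 ± 0.07 (adjusted p = 0.00351), with 0.60 in batch 1 and 0.15 in batch 2. It was the only 1 called of 24 tested lectin and complement genes, where 0.628% of all genes were called higher, and the list median was 0.02. Mpeg1, a pore-forming protein of macrophages, had medians of 137 CPM in fasted K556R and 96.3 CPM in fasted WT livers, and of 119 CPM in refed K556R and 85.3 CPM in refed WT livers (0.41 ± 0.10, adjusted p = 0.0438). Ms4a6b, a membrane protein of leukocytes, rose by 0.72 ± 0.18 (adjusted p = 0.0431). Of 12 macrophage markers, edgeR and DESeq2 called none (0 at an unadjusted p below 0.05 by edgeR), all 12 lay above 0 with a median of 0.16, and none had 0 counts throughout. Within batches the median was 0.01 in batch 1, where 6 of the 12 lay above 0, and 0.28 in batch 2. Their summed level was 199, 418 and 622 CPM in fasted K556R and 209, 337 and 761 CPM in fasted WT livers, and 298, 406 and 515 CPM in refed K556R and 233, 349 and 419 CPM in refed WT livers. All 10 proliferation markers lay above 0 (median 0.26) and neither tool called any (1 at an unadjusted p below 0.05 by edgeR). The part of other cell types in these differences was not tested.

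The interferon response differed widely among K556R livers and was used to ask which of the 130 genes follow it. The interferon score, the mean log2 CPM of 20 core interferon genes, was 3.40, 3.95 and 4.88 in fasted K556R livers and 3.22, 3.42 and 3.56 in fasted WT livers. Refed K556R livers had scores of 3.52, 4.01 and 4.96, and refed WT livers 3.17, 3.54 and 3.75. Median scores in batches 1 and 2 were 4.82 and 3.69 in fasted K556R and 3.42 and 3.37 in fasted WT livers. In refed livers they were 4.665 and 3.835 in K556R and 3.68 and 3.28 in WT. The slope was fitted with group and 1 batch term, which does not take out a batch difference particular to K556R livers. In that fit 77 genes changed with the score (0.493% of tested genes), and outside the interferon list 16 did (0.104%). Of the 34 higher genes, 8 did, all upward, and of the 96 lower genes none did by edgeR (9 at an unadjusted p below 0.05). The slope, in log2 per unit of score, was 3.63 for Dlk1, 2.51 for Rian, 1.89 for Meg3 and 1.55 for Psrc1. It was 0.72 for Gm20559, 0.63 for Mpeg1, 0.41 for Ccng1 and 0.38 for Mbl2. Gm5724 (0.60), Gldn (0.30) and Kbtbd8 (-0.25) were not called for a slope.

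With the score added to the model, only Gm5724 remained called (4.74, adjusted p = 0.0292). All 96 lower genes kept their sign in this fit, with a median log2 difference of -0.18 against -0.23 without the score. Of the 34 higher genes 28 kept theirs, with a median of 0.35 against 0.73. The score itself differs between the genotypes, so genotype and score cannot be fully told apart in this fit. In it, Dlk1 stood at -0.25, Meg3 at -0.06, Rian at -0.14, Mpeg1 at -0.07, Plk2 at -0.02 and Vil1 at -0.03, the opposite sign of the values above, and the p53 list had a median of -0.03 with 12 of 35 above 0. Gldn stood at 1.47, Kbtbd8 at 0.72, Lad1 at -0.62 and Lipe at -0.39, with the sign of their values without the score, and none of these 4 passed the test. Whether the interferon response or another property of these livers underlies the shared variation was not tested.

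**Figure D3:**
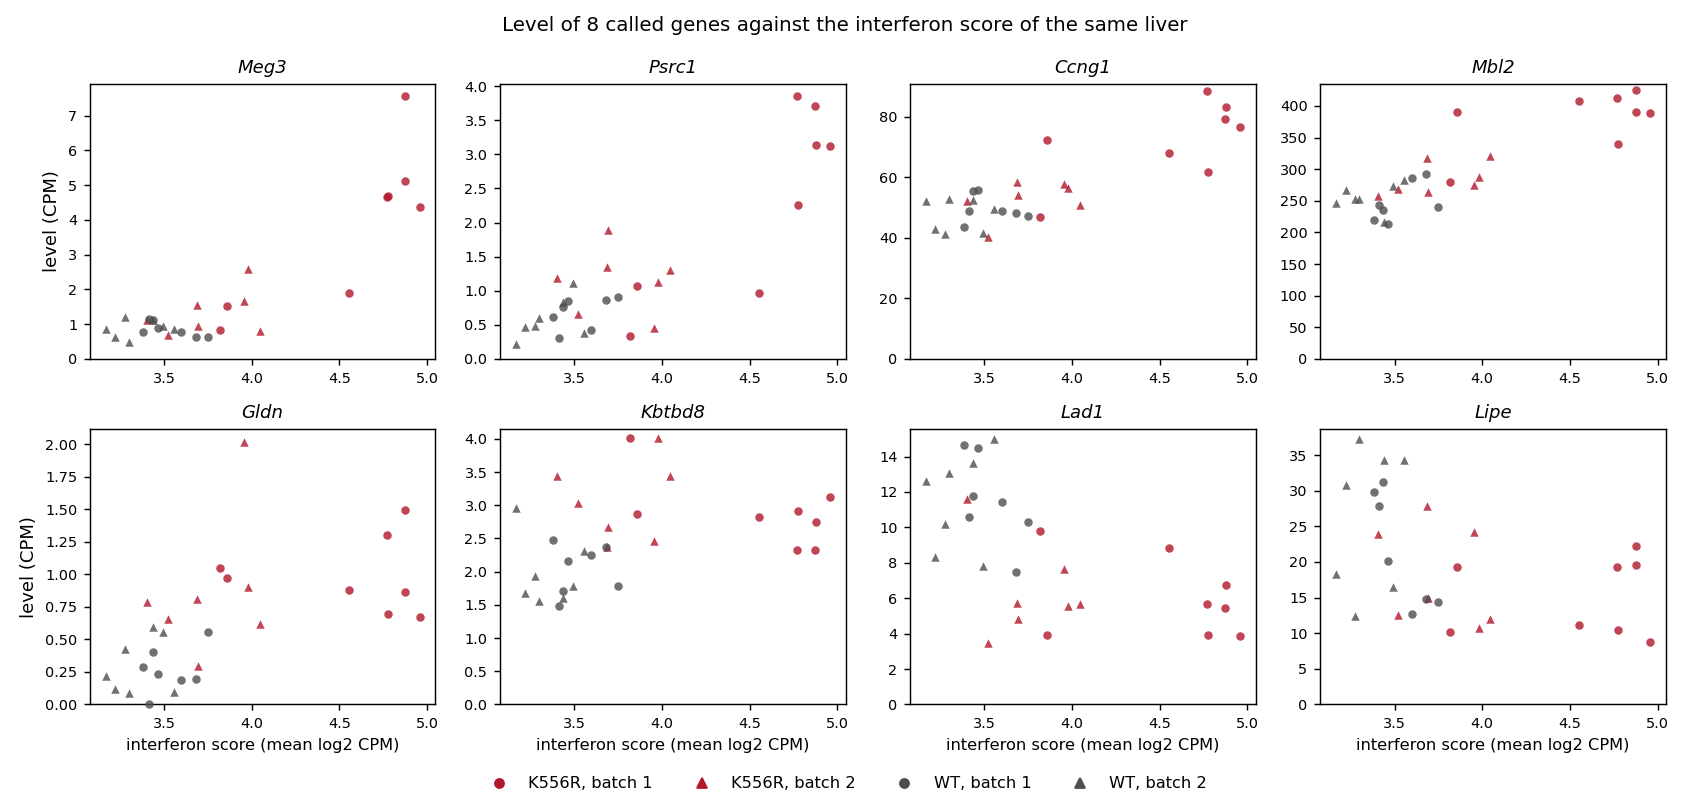
CPM of 8 genes (vertical axes) against the interferon score, the mean log2 CPM of 20 core interferon genes (horizontal axis), with K556R livers in red and WT livers in grey. Meg3 and Psrc1 are highest in the K556R livers of highest score, while Gldn, Kbtbd8, Lad1 and Lipe show no such order.

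The promoters of the called genes were searched for 4 short motifs. The core of the interferon response element, on either strand, was in a promoter of 31 of 49 called interferon genes with a RefSeq promoter (63.3%). It was in 1 of 28 higher genes outside the list (3.57%), in 2 of 72 lower genes (2.78%) and in 427 of 11065 tested genes (3.86%); over all 32851 promoters the share was 3.44%. The higher gene was Plk2, whose promoter is shown with the match in capitals as it reads on the gene's strand. The lower genes with a match were Hspb6 and Pla2g6. The E-box CACGTG was in 2 of the 28 higher genes (7.14%), 7 of the 72 lower genes (9.72%) and 11.4% of tested genes. TTGCGCAA and the spaced AGGTCA repeat were in none of the called genes and in 0.334% and 0.0542% of tested genes. A match is a description of the letters in these windows.
Plk2, chr13:110394794-110395093, plus strand: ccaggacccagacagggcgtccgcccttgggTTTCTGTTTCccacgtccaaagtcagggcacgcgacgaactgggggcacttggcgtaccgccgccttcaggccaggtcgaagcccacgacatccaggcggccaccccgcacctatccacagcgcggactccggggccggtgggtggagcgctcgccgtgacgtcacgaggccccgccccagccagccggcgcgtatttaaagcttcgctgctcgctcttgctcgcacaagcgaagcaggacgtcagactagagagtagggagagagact

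The higher genes Gm20559 and Gm6548 lie near interferon genes. Gm20559, a noncoding transcript 26129 bases from Samd9l on the same strand, rose by 0.67 ± 0.10 (adjusted p = 0.000934), with medians of 10.4 CPM in fasted K556R and 6.25 CPM in fasted WT livers. Gm6548, a processed pseudogene 608 bases from Eif2ak2 on the same strand, rose by 0.39 ± 0.08 (adjusted p = 0.00525). Of the 130 genes, 3 lie within 100000 bases of a called interferon gene, Gm20559, Gm6548 and the lower gene Rnh1. The same share over all tested genes was not determined, so the count is a description only. Csprs, a multi-copy gene on an unplaced scaffold, was called higher (1.00 ± 0.22, adjusted p = 0.0179), but its reads may be split with near-identical copies and its value is uncertain.

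The lower genes named next were of mixed roles. Lad1 codes for ladinin, a protein of epithelial anchoring filaments and actin. It had 3.94, 5.71 and 11.6 CPM in fasted K556R livers, against 8.35, 13.3 and 15.0 CPM in fasted WT livers. In the refed state, K556R livers had 3.46, 5.17 and 9.80 CPM of Lad1, against 7.496, 10.2 and 12.6 CPM in refed WT livers. In the WT range stood 1 fasted and 2 refed K556R livers, and Lad1 fell by 0.86 ± 0.15 on the log2 scale (adjusted p = 0.00268), with -0.90 in batch 1 and -0.83 in batch 2. Of the 21 tested adhesion genes Lad1 alone was called, where 0.615% of all genes were called lower, and the list median was 0.01. Gpc1, the heparan sulphate proteoglycan glypican-1, had 30.9, 43.5 and 61.3 CPM in fasted K556R livers, against 51.9, 68.2 and 79.4 CPM in fasted WT livers. After refeeding, K556R livers had 22.7, 41.6 and 57.9 CPM of Gpc1, against 49.98, 61.1 and 71.0 CPM in refed WT livers. Gpc1 fell by 0.54 ± 0.09 (adjusted p = 0.00182) with a small overlap in both states. It was the only 1 of 21 tested proteoglycan genes called, against the same 0.615% of all genes called lower.

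Kbtbd11, a kelch and BTB domain protein, had 7.68, 9.73 and 19.4 CPM in fasted K556R livers, against 15.4, 20.0 and 30.1 CPM in fasted WT livers. Kbtbd11 fell by 0.84 ± 0.19 (adjusted p = 0.0241), and refed livers had medians of 7.14 CPM in K556R and 15.3 CPM in WT. Rassf4, a Ras association domain protein, fell by 0.48 ± 0.11 (adjusted p = 0.0224) and Mapkapk5, a kinase downstream of p38, by 0.47 ± 0.12 (adjusted p = 0.0428). Tpm2, a tropomyosin of the actin cytoskeleton, fell by 0.44 ± 0.10 (adjusted p = 0.0252). Adra1a, an adrenaline receptor, had medians of 11.1 CPM in fasted K556R and 13.8 CPM in fasted WT livers. Its medians were 6.77 CPM in refed K556R and 10.1 CPM in refed WT livers. Adra1a fell by 0.38 ± 0.08 (adjusted p = 0.0138). Furin, a protease that matures secreted precursors, fell by 0.23 ± 0.05 (adjusted p = 0.00891).

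Of the lists of lipases and lipid droplet genes and of fasting factors, 1 gene each was called, where 0.615% of all genes were called lower. Lipe, which codes for hormone-sensitive lipase, had 19.2, 22.2 and 27.9 CPM in fasted K556R livers, against 20.2, 31.0 and 37.2 CPM in fasted WT livers. Refed K556R livers had 8.79, 10.96 and 15.0 CPM of Lipe, against 12.5, 14.6 and 18.3 CPM in refed WT livers. The groups overlapped in both states, and Lipe fell by 0.42 ± 0.06 (adjusted p = 0.000934), the smallest p of the lower genes. Its log2 difference was -0.45 in batch 1 and -0.38 in batch 2. Of 21 tested lipase and lipid droplet genes, Lipe was the only 1 called; Pnpla2, the adipose triglyceride lipase, had -0.24 ± 0.08 (adjusted p = 0.15) and Mgll, the monoglyceride lipase, -0.17 ± 0.05 (adjusted p = 0.069). Pla2g6, a calcium-independent phospholipase, fell by 0.32 ± 0.06 (adjusted p = 0.00856) and Smpd3, a neutral sphingomyelinase, by 0.55 ± 0.13 (adjusted p = 0.0354). Ces1e, a carboxylesterase, fell by 0.30 ± 0.08 (adjusted p = 0.0457). A promoter of Lipe, shown with its E-box in capitals, was among those with CACGTG.
Lipe, chr7:25395938-25396237, minus strand: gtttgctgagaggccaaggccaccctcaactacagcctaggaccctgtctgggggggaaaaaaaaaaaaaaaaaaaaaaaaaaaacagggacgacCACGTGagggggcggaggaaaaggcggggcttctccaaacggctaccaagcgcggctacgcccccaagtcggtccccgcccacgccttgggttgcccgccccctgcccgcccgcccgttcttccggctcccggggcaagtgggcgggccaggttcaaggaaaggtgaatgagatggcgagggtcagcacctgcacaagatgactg

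Cebpb, a transcription factor of gluconeogenesis and of the acute phase, had 83.6, 120.2 and 153 CPM in fasted K556R livers, against 135, 159 and 277 CPM in fasted WT livers. In the refed state, K556R livers had 34.6, 56.4 and 80.4 CPM of Cebpb, against 44.6, 71.0 and 110.2 CPM in refed WT livers. Cebpb fell by 0.43 ± 0.10 (adjusted p = 0.0222) with overlap in both states. It was the only 1 called of 21 tested fasting factors (0.615% of all genes were called lower), and the list median was -0.11. Its relatives Cebpa and Cebpd had -0.23 ± 0.07 (adjusted p = 0.0861) and -0.43 ± 0.17 (adjusted p = 0.225). Fbxo31, a substrate receptor of a ubiquitin ligase, had 83.4, 102 and 124 CPM in fasted K556R livers, against 100.7, 121 and 152 CPM in fasted WT livers. After refeeding, K556R livers had 19.3, 27.1 and 41.5 CPM of Fbxo31, against 33.1, 40.8 and 61.0 CPM in refed WT livers. It fell by 0.43 ± 0.09 (adjusted p = 0.0106). Pdk2, the kinase that switches off pyruvate dehydrogenase in fasting, fell by 0.24 ± 0.05 (adjusted p = 0.00469), and Eif4ebp1, a translation inhibitor, by 0.25 ± 0.06 (adjusted p = 0.0284). Slc2a1, the glucose transporter GLUT1, fell by 0.25 ± 0.06 (adjusted p = 0.0354). None of 23 tested insulin signalling genes was called by edgeR or DESeq2 (1 at an unadjusted p below 0.05 by edgeR), and 19 of them lay below 0.

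Of the 96 lower genes, 32 were also lower in refed than in fasted livers. Between refed and fasted livers, averaged over the genotypes, 4001 genes were called (25.6% of tested genes), 1992 of them lower when refed (12.8%) and 2009 higher (12.9%). Among the genes lower in K556R livers, 34 were called for feeding, 32 of them lower when refed and 2 higher (Pcp4l1 and Ndufb8). Of the 34 genes higher in K556R livers, 6 were called for feeding, 3 in each direction. The feeding difference (refed minus fasted, log2) was -1.71 for Fbxo31, -1.26 for Cebpb, -1.02 for Lipe, -0.98 for Rassf4 and -0.65 for Adra1a. It was -0.41 for Pdk2, and -1.18 for Eda2r and -0.20 for Ccng1 among the genes higher in K556R livers. For Fbxo31, Cebpb, Lipe, Rassf4 and Adra1a the feeding difference was larger in size than the genotype difference. Genotype and feeding contrasts use the same libraries, and each is given by its own values.

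**Figure D4:**
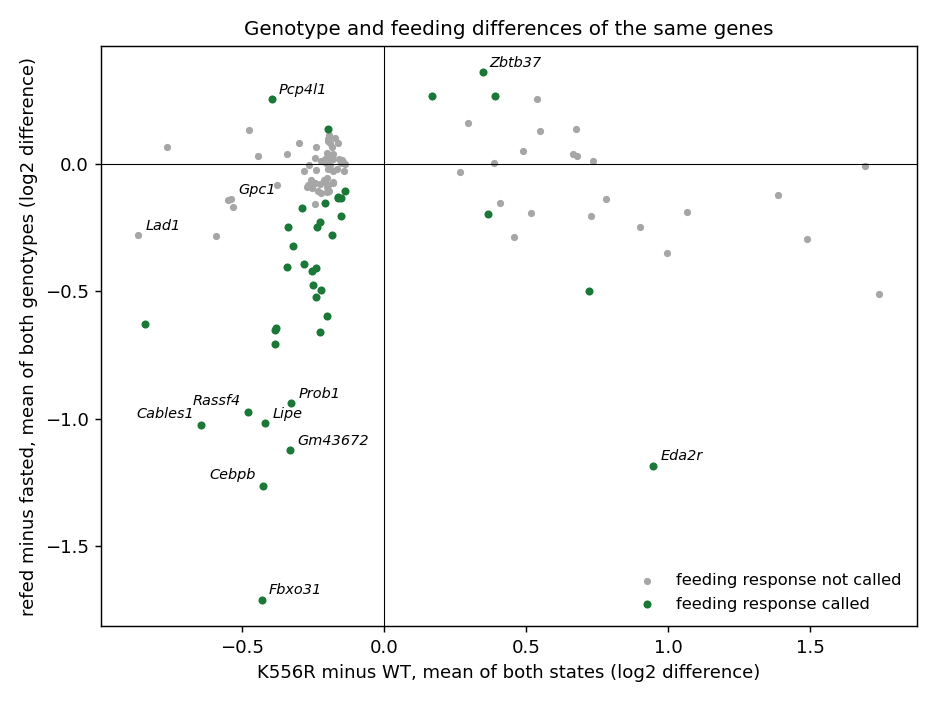
Log2 difference between K556R and WT livers (horizontal axis) and between refed and fasted livers (vertical axis) for the 123 of 130 called genes whose genotype difference is below 2 in size. Green points are called for feeding, and 32 of those left of 0 lie below 0 on the feeding axis.

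Of the genes of autophagosome formation, a small number was called lower. Gabarapl1, which couples to lipids on autophagic membranes, had 271, 298 and 362 CPM in fasted K556R livers, against 300.1, 329 and 375 CPM in fasted WT livers. Refed K556R livers had 142, 178 and 227 CPM of Gabarapl1, against 221, 226 and 258 CPM in refed WT livers, where a K556R liver reached the WT range. The log2 difference of Gabarapl1 was -0.07 when fasted and -0.39 when refed, and over both it fell by 0.23 ± 0.05 (adjusted p = 0.0234). Map1lc3b, the LC3B protein of the same family, had medians of 164 CPM in fasted K556R and 181 CPM in fasted WT livers, and of 105 CPM in refed K556R and 127 CPM in refed WT livers. It fell by 0.20 ± 0.05 (adjusted p = 0.0244). Both are on the autophagy list. Of its 26 tested genes, 2 were called lower, against 0.615% of all genes, and 18 lay below 0 (median -0.04). By edgeR, 8 of the list had an unadjusted p below 0.05, as did 2291 of all 15603 tested genes. None of the 26 was called by edgeR with the replicate block, with GC and length offsets or with no low-count filter, and DESeq2 called 3. Outside that list, Atg101, a subunit of the kinase complex that starts autophagy, fell by 0.26 ± 0.06 (adjusted p = 0.0208) and Atg4d, a protease of LC3-like proteins, by 0.24 ± 0.06 (adjusted p = 0.033). Map1lc3b lies 11555 bases from Fbxo31.

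Among nuclear genes of the mitochondrial respiratory chain, 5 were called, all lower and by small amounts. Cyc1, the cytochrome of complex III, had 183, 190.1 and 208 CPM in fasted K556R livers, against 205, 222 and 265 CPM in fasted WT livers. In the refed state, K556R livers had 179, 210.4 and 231 CPM of Cyc1, against 188, 234 and 265 CPM in refed WT livers. Cyc1 fell by 0.19 ± 0.04 (adjusted p = 0.0284) with overlap. Ndufb8 of complex I fell by 0.20 ± 0.05 (adjusted p = 0.0252), Ndufa10 of complex I by 0.15 ± 0.04 (adjusted p = 0.0354), Uqcrc1 of complex III by 0.16 ± 0.04 (adjusted p = 0.0457) and Atp5a1 of the ATP synthase by 0.14 ± 0.04 (adjusted p = 0.0431). Of 84 tested nuclear respiratory chain genes, 5 were called lower by edgeR (0.615% of all genes were), and 78 lay below 0. That count was 18 by DESeq2, 1 with the replicate block, 0 with no low-count filter and 0 to 12 with 1 library left out. It was 0 without WT refed batch 1 replicate 2 or 3 and 12 without WT refed batch 1 replicate 1. Of the 29 fits that leave out 1 library, Uqcrc1 was lost in 21, Atp5a1 in 19 and Ndufa10 in 16. Their median log2 difference was -0.12, with -0.09 in batch 1 and -0.13 in batch 2, while the median over all tested genes was 0.00. Of the 13 genes of the mitochondrial genome, edgeR called none (1 at an unadjusted p below 0.05) and DESeq2 called 1, and all lay above 0 with a median of 0.05. That sign was not stable, since the median was 0.14 in batch 1 and -0.08 in batch 2, and -0.03 once trends with GC content and length were taken out.

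Other mitochondrial genes among the 96 serve its metabolism, translation and shape. Mrps18a was the 1 called of 79 tested mitochondrial ribosome genes, where 0.615% of all genes were called lower, and its call was lost in 23 of the 29 fits that leave out 1 library. Of the 79, 64 lay below 0 (median -0.06). Clpb, a mitochondrial disaggregase, had 44.7, 48.8 and 51.4 CPM in fasted K556R livers, against 51.9, 60.1 and 68.4 CPM in fasted WT livers, with no overlap. After refeeding, K556R livers had 41.9, 46.9 and 54.2 CPM of Clpb, against 46.2, 54.5 and 59.9 CPM in refed WT livers, with overlap. Clpb fell by 0.25 ± 0.05 (adjusted p = 0.00356). It was the 1 called of 15 tested chaperone and protease genes of mitochondria, where 0.615% of all genes were called lower. Tufm, the elongation factor of mitochondrial translation, fell by 0.16 ± 0.04 (adjusted p = 0.0373), and Sirt3, a mitochondrial deacylase, by 0.15 ± 0.03 (adjusted p = 0.0231). Mfn2, which fuses mitochondria, fell by 0.15 ± 0.03 (adjusted p = 0.0224) and Rhot2, which anchors them to motors, by 0.19 ± 0.04 (adjusted p = 0.013). Pdha1, a subunit of pyruvate dehydrogenase, fell by 0.16 ± 0.04 (adjusted p = 0.0252), Got2, the mitochondrial aspartate aminotransferase, by 0.14 ± 0.03 (adjusted p = 0.0287) and Acads, a short-chain acyl-CoA dehydrogenase, by 0.20 ± 0.05 (adjusted p = 0.0377).

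Aspg, an asparaginase, had 125, 166 and 235 CPM in fasted K556R livers, against 183, 231 and 304 CPM in fasted WT livers. Aspg fell by 0.29 ± 0.05 (adjusted p = 0.00185), and in refed livers its medians were 178 CPM in K556R and 198 CPM in WT. It was the only 1 called of 26 tested genes of amino acid breakdown and the urea cycle, where 0.615% of all genes were called lower. Of the 26, 22 lay below 0 (median -0.11). Mfsd3, a membrane transporter of the major facilitator type, had 6.76, 8.40 and 10.4 CPM in fasted K556R livers, against 9.58, 11.6 and 14.1 CPM in fasted WT livers. Mfsd3 fell by 0.38 ± 0.06 (adjusted p = 0.00182) and lies 6546 bases from Ppp1r16a, a regulatory subunit of a phosphatase that fell by 0.25 ± 0.05 (adjusted p = 0.00683). Of 18 tested genes of Prox1 and its known partners, edgeR called none (6 at an unadjusted p below 0.05) and DESeq2 called 1. Over all 15603 tested genes, 2291 had an unadjusted p below 0.05 by edgeR. Of the 9 tested hepatocyte markers neither tool called any (1 at an unadjusted p below 0.05 by edgeR), and 7 lay below 0 (median -0.04).

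**Figure D5:**
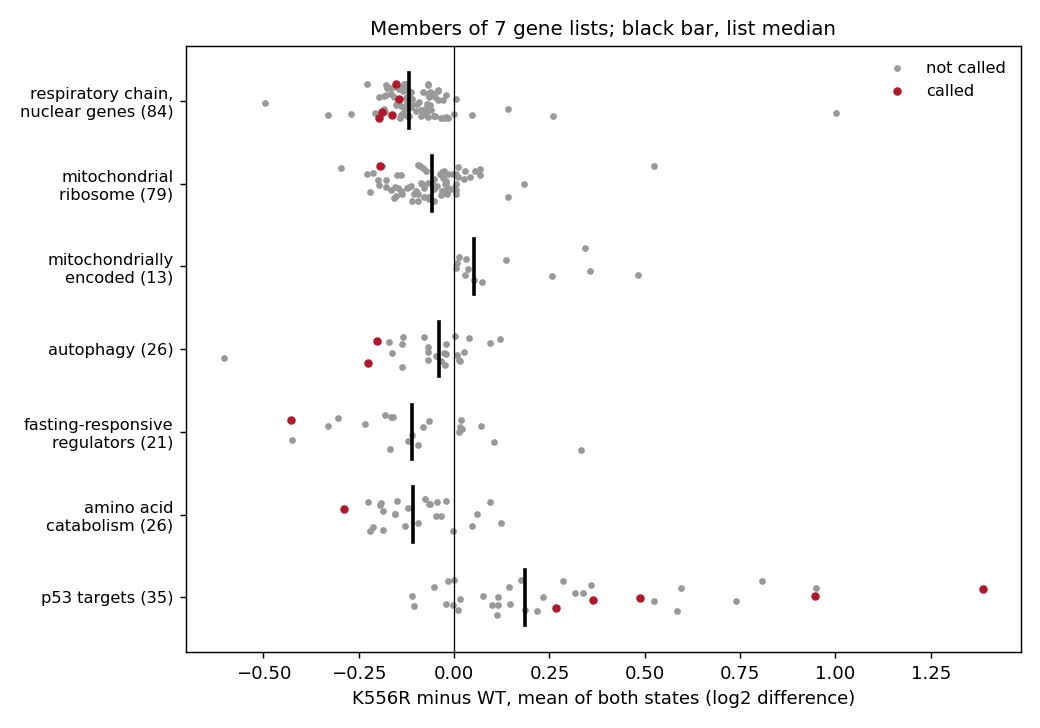
Log2 difference between K556R and WT livers for each tested member of 7 gene lists (points), with called members in red and the list median as a black bar. The p53 targets lie mostly above 0 and the respiratory chain genes mostly below 0, with few called members in either.

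The sequence make-up and position of the called genes are given as a description. The higher genes had a median transcript GC content of 44.0% and the lower genes of 55.6%, against 49.4% over all tested genes. When trends with GC content and length were taken out of each library, 28 higher and 61 lower genes were called outside the list, 23 and 33 of them among the 34 and 96. The part of library composition in the counts was not tested further. Chromosome 1, which carries Prox1, held 10 of the 130 genes, among 959 tested there (1.04%), against 0.833% over all tested genes, and chromosomes 7 (1.47%) and 15 (1.46%) held larger shares. Protein-coding genes made up 28 of the 34 higher and 90 of the 96 lower genes.

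The batches were also set side by side for the 130 genes. All 34 higher and all 96 lower genes had 1 sign in both batches, a description since both batches entered the choice. The median log2 difference of the higher genes was 0.77 in batch 1 and 0.64 in batch 2, and that of the lower genes -0.28 and -0.19. Batch 1 alone gave 21 higher and 41 lower calls outside the list, of which 35 were among the 130 (14 higher and 21 lower) and 27 were other genes. Batch 2 alone gave none by edgeR, with 1392 genes at an unadjusted p below 0.05. After batch adjustment, every K556R liver stood beyond every WT liver for 3 of the 34 higher and 11 of the 96 lower genes when fasted (Gm5724, Gldn and Gm45425 higher; Aspg, Clpb and Cyc1 among the lower), where 15 and 18 of the 15603 tested genes did. When refed, 3 higher and 3 lower genes did (Gm5724, Car13 and Kif11; Map1lc3b, Pdk2 and Tmbim6), where 12 and 12 of all tested genes did.

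The calls depended on single libraries in some cases. Leaving out 1 library at a time, 45 of the 130 genes were called in every fit, 17 higher and 28 lower. They include Gm5724, Gldn, Dlk1, Meg3, Rian, Psrc1, Eda2r, Ccng1, Gria3, Kif11 and Mbl2 among the higher, and Lad1, Gpc1, Lipe, Fbxo31, Rassf4, Adra1a, Aspg, Clpb, Mfsd3, Pdk2, Gabarapl1 and Furin among the lower. The low-count filter was rerun in each fit, and a gene it dropped was counted as not called. Slco1c1 and Them5 are not among the 45, but kept their call in every fit that tested them (adjusted p of at most 0.0129 and 0.0125 by edgeR). Mup13, a major urinary protein gene of many near-identical copies, was called lower (-3.15 ± 0.80, adjusted p = 0.0431) through 1 refed WT liver (batch 2 replicate 1) with 1618 CPM, where the other 5 refed WT livers had at most 8.24 CPM. Without that library the difference was -0.36 (adjusted p = 0.804).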

How the data were processed

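The deposited table holds whole-number read counts per gene, not normalized, for 29 liver libraries. Tools named in the submitters' processing notes are TopHat, STAR, STAR-Fusion, HTSeq, edgeR and DESeq2, with mm10 as the build. Annotation release and strand setting of the counting are not given in the sources used here. Of 54532 gene identifiers, 37 could not be matched to GENCODE M21 (GRCm38) and held 0.000917% of counts. Library totals ran from 14385218 to 27278251 counts, 19065976 to 27278251 in batch 1 and 14385218 to 23526145 in batch 2. Counts include PCR duplicates, so intervals and floors reflect counting error alone.

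The low-count filter was filterByExpr at a minimum count of 10 and a total of 15; it kept 15603 genes and 99.92% of counts. All libraries entered a quasi-likelihood model in edgeR 4.0.16 with TMM scaling, a coefficient for each group and batch as covariate (common biological coefficient of variation 0.191). The tested contrast is the mean of the fasted and refed K556R minus WT differences, with calls made below a Benjamini-Hochberg adjusted p of 0.05; standard errors are those implied by the F statistic. The interferon score slope was fitted with group coefficients and a batch term shared by all groups. Log2 CPM uses a prior count of 2. DESeq2 1.42.0, limma 3.58.1 (batch-adjusted values) and the principal components (base R) ran in R 4.3.3. Other steps used Python 3.11.15 with pandas 2.3.3, scipy 1.17.1 and matplotlib 3.10.9. The procedure was tested on simulated data.

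The genes described, the lists and the alternatives were chosen with earlier results of these data known. Named genes are the 15 largest called differences per direction and the 10 smallest p-values per direction from a mean log2 CPM of 1 upward, the 6 largest per direction below that level, called list members, the 5 genes of smallest slope p per direction and Prox1. Members of the set called with an unadjusted p below 0.05 in each state were named after their values were seen, among them Gldn, Vil1 and the mitochondrial genes, and so were Csprs, Gm45425 and Hspb6. The respiratory chain, mitochondrial ribosome and mitochondrial genome lists were added after the data were seen. The first principal component held 37.9% of variance and 97.2% of it followed batch. No library was left out of the reported values. Libraries of a group differed beyond counting error in all 92 pairs (chi-square per degree of freedom 10.9 to 164). Alternatives were RLE size factors, DESeq2, other low-count filters, each batch alone, an additive model, a replicate block, the interferon score as covariate, a shorter interferon list, GC and length offsets, and leaving out libraries. Promoters are RefSeq windows on GRCm38.p6.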

Additional observations from a re-analysis of the deposited data

Results flagged for a closer look

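Within each group of 6 to 8 livers, the named genes were checked for a library whose batch-adjusted log2 CPM stood far from all others. Of 312 checks on 78 genes, 21 found such a library (6.73%), where chance gives about 1 in 20. Values below are the CPM of the library that stood apart.

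Among refed K556R livers, batch 1 replicate 4 stood apart for 3 higher genes, low for Eda2r (0.771) and Gria3 (2.31) and high for Gm45792 (9.14), and batch 2 replicate 1 was low for Gldn (0.296). Among fasted K556R livers, batch 1 replicate 2 stood apart for Ces1e (198) and Eif4ebp1 (33.3), batch 1 replicate 1 for Slc17a8 (40.1), batch 2 replicate 2 for Tpm2 (5.35) and batch 2 replicate 3 for Uqcrc1 (259).

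Among fasted WT livers, batch 1 replicate 3 stood apart for 6 lower genes, Acads (301), Atg4d (33.8), Cyc1 (265), Selenoo (67.6), Stard10 (1231) and Tufm (127). Fasted WT batch 1 replicate 2 stood apart for C730036E19Rik (126) and fasted WT batch 2 replicate 2 for Gm28172 (1.04). Among refed WT livers, batch 2 replicate 1 stood apart for Mup13 (1618) and Ccng1 (52.0), and batch 2 replicate 3 for Mpeg1 (94.1) and Ms4a6b (2.95).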

How the results depend on the processing

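Outside the interferon list, 34 higher and 96 lower genes were called, 112 of them in the set with an unadjusted p in each feeding state, and 8 with a slope on the interferon score. DESeq2 called 86 higher and 245 lower (221 in both states), with no adjusted p for 7 of 78 named genes. No low-count filter left 41 lower, and a minimum log2 CPM of 1 left 5 slopes. Batch 1 alone gave 21 higher, 41 lower, 56 in both states and 4 slopes, and batch 2 alone 0 of each, with 1392 genes at an unadjusted p below 0.05. The interferon score as covariate left 1 higher and 0 lower (1 in both states). The shorter interferon list gave 79 higher genes and 38 slopes. GC and length offsets gave 61 lower, and leaving out 2 libraries that stand apart (K556R refed batch 1 replicate 4 and WT refed batch 2 replicate 1) gave 5 slopes; both alternatives were chosen after seeing the data.

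Replicate numbers do not pair the livers: same-numbered libraries correlated at -0.387 to 0.36 over 40 pairs (median -0.0288). With the number as a replicate block, 19 higher and 26 lower genes were called, 39 in both states and 5 slopes, all 45 genes among the 130.

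With each library left out in turn there were 20 to 63 higher, 40 to 161 lower, 55 to 174 in both states and 3 to 8 slopes. Without K556R refed batch 1 replicate 4 there were 63 higher and 161 lower genes. Without K556R fasted batch 1 replicate 3 or 4 there were 22 or 20 higher and 59 or 48 lower, and without K556R refed batch 1 replicate 3 there were 20 and 49. Lower genes numbered 62 and 48 without WT fasted batch 1 replicate 1 or 4, 40 and 41 without WT refed batch 1 replicate 2 or 3, 60 without K556R fasted batch 2 replicate 3, 56 without K556R refed batch 2 replicate 3 and 62 without WT fasted batch 2 replicate 2.

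Of the named genes, all 78 kept their direction and side of the threshold with RLE size factors, 76 in an additive model, 44 with GC and length offsets and 39 with the replicate block. With the score as covariate the sign reversed for Dlk1 (-0.251), Meg3 (-0.064), Mpeg1 (-0.0738), Plk2 (-0.0169), Rian (-0.136) and Vil1 (-0.0297). Prox1, not called in any of these fits, stood at 0.0906 in batch 1 alone and between -0.0552 and 0.00122 with 1 library left out. The causes of these changes were not tested. Genes under about 1 CPM rest on few counts per library, which limits their precision.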
